A study of Mus musculus with 32 samples.

Results

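CAP7 and rosiglitazone (ROSI) were compared in mouse adipocytes that had received no TNF-alpha (TNF), in 4 libraries of each compound out of 32 in the series. The libraries were taken by their labelled treatment, and no measured value was used to choose them. All 14428 genes that passed a filter on low counts were tested. Every group was made from 3T3-L1, a single mouse preadipocyte line that becomes fat-storing adipocytes after insulin, dexamethasone and IBMX. The differentiated cells were exposed for 24 h to CAP7, to ROSI or to the DMSO vehicle, and matching groups received the same compound together with TNF, an inflammatory cytokine. ROSI is a thiazolidinedione drug that activates PPARγ, and the study included it as a control for PPARγ target genes. The sources used here give neither the nature of CAP7 nor the dose of either compound, so the comparison is of 2 treatments as applied and not of 2 matched doses. The labels call the 4 libraries of a group biological replicates without saying whether they came from separate cultures. The p-values therefore measure the spread between libraries of a group, estimated over all 32 libraries of the series.

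PPARγ is a nuclear receptor that pairs with RXR on DNA and switches on the genes with which an adipocyte takes up, binds, stores and releases fatty acids. It is required for fat cell differentiation, and thiazolidinediones bind in its ligand pocket. Levels below are CPM, the count of a gene per 1e6 counts of its library after TMM scaling, differences are log2 values of CAP7 minus ROSI from edgeR's quasi-likelihood fit, and a gene is called where its Benjamini-Hochberg adjusted p over all tested genes is under 0.05. The libraries count 3' ends of mRNA, so CPM of different genes are set side by side without correction for transcript length.

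Library totals, in units of 1e6 counts, were 17.01 to 28.57 with CAP7, 16.66 to 28.15 with ROSI and 11.31 to 21.91 with DMSO. The first principal component of the 8 libraries compared held 24.1% of the variance and separated all CAP7 from all ROSI libraries, and ROSI replicate 3 stood apart on the second, which held 17.1%. The 12 adipocyte markers were all detected, with a summed level of 64813 to 77603 CPM in CAP7 libraries, 79889 to 93561 in ROSI libraries and 56210 to 59894 in DMSO libraries. Fabp4 made up much of that sum, with a mean of 30831 CPM with CAP7 and 45168 CPM with ROSI, and of the 12 markers 2 were called higher with CAP7, 3 lower and 7 not, with a median difference of -0.07. The 10 fibroblast and preadipocyte markers summed to 2033 to 2430 CPM with CAP7, 2298 to 2615 with ROSI and 3382 to 3921 with DMSO, and none of the 9 tested was called. Of 10 macrophage and leukocyte markers, Ptprc, Adgre1, Itgam, Mrc1 and Tyrobp were at 0 in every library of the 3 groups, and the whole list summed to 4.2 to 8.29 CPM with CAP7 and 4.77 to 5.68 CPM with ROSI. The 9 endothelial and mural markers summed to 26.4 to 35.4 CPM with CAP7 and 18.6 to 25.3 CPM with ROSI. The endothelial cadherin Cdh5 was at 0. Of the 3 tested, 2 were called higher with CAP7 and 0 lower. Without CAP7 replicate 3, 0 were called higher. The part of these marker levels in the results was not tested. In such bulk libraries fewer cells of a type and less RNA per cell cannot be told apart.

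CAP7 and ROSI left cells that differed in 1681 genes, 11.7% of those tested, and most of the differences were small. In CAP7-treated cells 777 genes (5.39%) were higher and 904 (6.27%) lower than in ROSI-treated cells. The called genes had a median absolute difference of 0.42 with quartiles of 0.301 and 0.662, and 198 of them differed at least 2-fold, 85 higher and 113 lower. Over all tested genes the median difference was 0.00, and 7535 genes (52.2%) had a 95% interval that lay within 0.5 of no difference in either direction. The balance of the calls depended on the scaling, since genes higher with CAP7 were 46.2% of calls here, 57.0% with library sizes alone (977 higher, 738 lower) and 40.4% with RLE factors (686 higher, 1013 lower). The median over all genes was -0.011 with RLE factors and 0.035 with library sizes alone. Without ROSI replicate 3, 663 genes were higher and 747 lower.

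**Figure D1:**
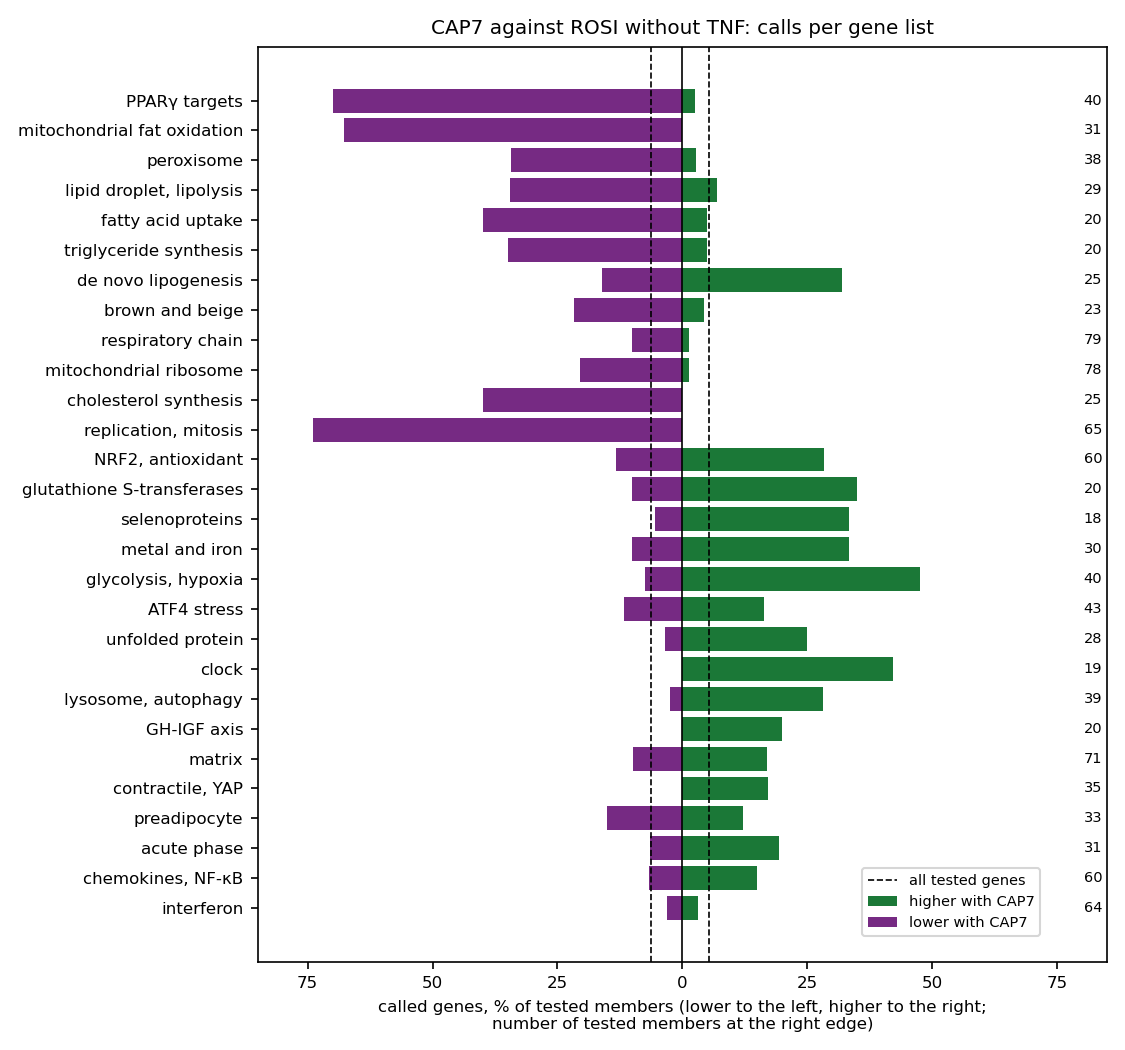
Share of the tested members of each gene list that were called higher (green, right) or lower (purple, left) with CAP7 than with ROSI, in percent, with the number of tested members at the right edge and the shares over all tested genes as dashed lines (5.39% higher, 6.27% lower). The longest bars to the left are replication and mitosis (48 of 65), PPARγ targets (28 of 40) and mitochondrial fat oxidation (21 of 31), and the longest to the right are glycolysis and hypoxia (19 of 40) and the clock (8 of 19). Some lists share members, above all the PPARγ targets with the lists of fat metabolism, so the bars do not count separate genes.

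Most PPARγ targets were higher than with DMSO under each compound, and most stood lower with CAP7 than with ROSI. Of 40 tested targets, 28 were lower with CAP7 than with ROSI and 1 was higher, with a median difference of -0.49 against 0.00 over all tested genes, and 5 listed targets did not pass the filter. Libraries of the compounds did not overlap in 31 of the 40, with CAP7 higher in 1 and lower in 30, while over all tested genes this held for 14.4%, with CAP7 higher in 6.85% and lower in 7.51%. Against DMSO the same list had a median of 0.59 with CAP7 (34 of 40 called higher, against 15.2% of all tested genes) and 1.14 with ROSI (35 of 40 called higher, against 18.4% of all tested genes). Those 2 comparisons share the DMSO libraries with each other and their treated libraries with the main one, so they place the levels and are not separate evidence.

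The largest difference among these targets was in Acaa1b, a peroxisomal thiolase of fatty acid oxidation. It had 4.31, 7.51, 5.24 and 4.66 CPM with CAP7, 24, 23.6, 21.2 and 27.3 CPM with ROSI and 0.842 to 3.19 CPM with DMSO, and the difference was -2.15 (SE 0.218, edgeR adjusted p = 5.32e-09). All ROSI libraries lay far above all CAP7 libraries, which in turn lay above the vehicle. Arxes2, a gene induced during adipogenesis, had 329, 405, 382 and 402 CPM with CAP7, 872, 862, 843 and 783 with ROSI and 122 to 136 with DMSO. Its difference was -1.15 (SE 0.0854, edgeR adjusted p = 3.22e-12), and no CAP7 library reached even the lowest ROSI one. Its near-identical copy Arxes1 differed by -0.996, but reads of the pair may be split between them, so neither level is certain.

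Of 20 tested genes of glyceroneogenesis and triglyceride synthesis 7 were lower with CAP7 and 1 higher, against 6.27% and 5.39% of all tested genes. In the list 12 were not called, and its median was -0.16. Most of the lower ones, such as Pck1, Gk, Agpat2 and Aqp7, were already counted among the lower PPARγ targets. The higher one was Dgat2, an acyltransferase of the last step of triglyceride synthesis, at 0.35. Among the lower ones were genes that supply, use or export glycerol. Pck1, which makes phosphoenolpyruvate for glyceroneogenesis, had 169, 192, 188 and 224 CPM with CAP7, 391, 374, 341 and 349.9 with ROSI and 42 to 57.3 with DMSO, a difference of -0.92 (SE 0.124, edgeR adjusted p = 1.26e-06). The groups did not overlap. Gk, the glycerol kinase, had 8.67, 7.75, 8.89 and 11.9 CPM with CAP7 and 22.3, 19.8, 20.4 and 17.4 with ROSI, a difference of -1.10 (SE 0.127, edgeR adjusted p = 6.83e-08). Here the CAP7 libraries lay just above the 5.7 to 7.14 CPM of DMSO. Aqp7, the channel through which glycerol leaves the cell, had 98.8, 102, 98.2 and 105 CPM with CAP7, 174, 148, 169 and 134 with ROSI and 64.3 to 71.9 with DMSO, and differed by -0.63.

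Over all tested genes 6.27% were called lower and 5.39% higher with CAP7. Of 20 tested genes of fatty acid uptake, binding and activation 8 were lower with CAP7, 1 was higher and 11 were not called. Their median was -0.23. Of 29 lipid droplet proteins, lipases and their receptors 10 were lower, 2 higher and 17 not called, with a median of -0.19. In both lists most of the lower genes were also counted among the lower PPARγ targets. Examples are Cd36, Fabp4 and Angptl4 in the first list and Plin2, Cidec, Pnpla2 and Hcar2 in the second. The higher ones were Acsl4, an acyl-CoA synthetase, at 0.34, Abhd6, a monoacylglycerol lipase, at 0.46, and Adrb3, a β-adrenergic receptor of adipocytes, at 0.47. The call of Acsl4 was lost without CAP7 replicate 1 or ROSI replicate 1, 2 or 3, with edgeR adjusted p between 0.0537 and 0.155. Fabp4, the abundant fatty acid binding protein, had 23930, 33692, 34386 and 31315 CPM with CAP7 and 48977, 44468, 37689 and 49537 with ROSI, a difference of -0.55 (SE 0.101, edgeR adjusted p = 0.000157). Cd36, the fatty acid transporter, had 1032, 1265, 1172 and 1257 CPM with CAP7 and 1731, 1717, 1684 and 1538 with ROSI, a difference of -0.50 (SE 0.0633, edgeR adjusted p = 4.04e-07). In both genes every ROSI library was above every CAP7 library. Plin2, a lipid droplet coat protein, had 608, 560.4, 569 and 508 CPM with CAP7, 822, 856, 880 and 1062 with ROSI and 204 to 216 with DMSO, a difference of -0.69 (SE 0.0745, edgeR adjusted p = 1.91e-08). Angptl4, a secreted inhibitor of lipoprotein lipase, had 327, 343, 369 and 328 CPM with CAP7 and 594, 580.5, 579 and 617 with ROSI, a difference of -0.80 (SE 0.0611, edgeR adjusted p = 4.85e-12). In both genes the CAP7 and ROSI libraries did not overlap. Pdk4, a brake on pyruvate oxidation, Agpat2, an acyltransferase of fat synthesis, Hcar2, the nicotinic acid receptor, and Pnpla2, the adipose triglyceride lipase, were called lower, at -0.95, -0.75, -0.56 and -0.48.

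A further 11 targets were not called. Plin1, the coat protein of mature droplets, had 1398, 1493, 1486 and 1380 CPM with CAP7 and 1452, 1480, 1496 and 1360 with ROSI, with a 95% interval of -0.13 to 0.11. The groups overlapped fully. Lipe, the hormone-sensitive lipase, was not called with an interval of -0.30 to 0.01, and Lpl, lipoprotein lipase, was not called with an interval of -0.03 to 0.30. Several other uncalled targets lay further below 0, with estimates like those of called ones. A missing call there does not mean that the groups were equal. The one target called higher was Klf15, a Krüppel-like factor of adipocyte metabolism, at 52.3, 54.1, 55.8 and 48.1 CPM with CAP7, 36.2, 35, 29.1 and 34.4 with ROSI and 49.5, 59.9, 57.8 and 54.3 with DMSO. It differed by 0.64, and the CAP7 libraries were at the level of vehicle while the ROSI libraries were below it.

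**Figure D2:**
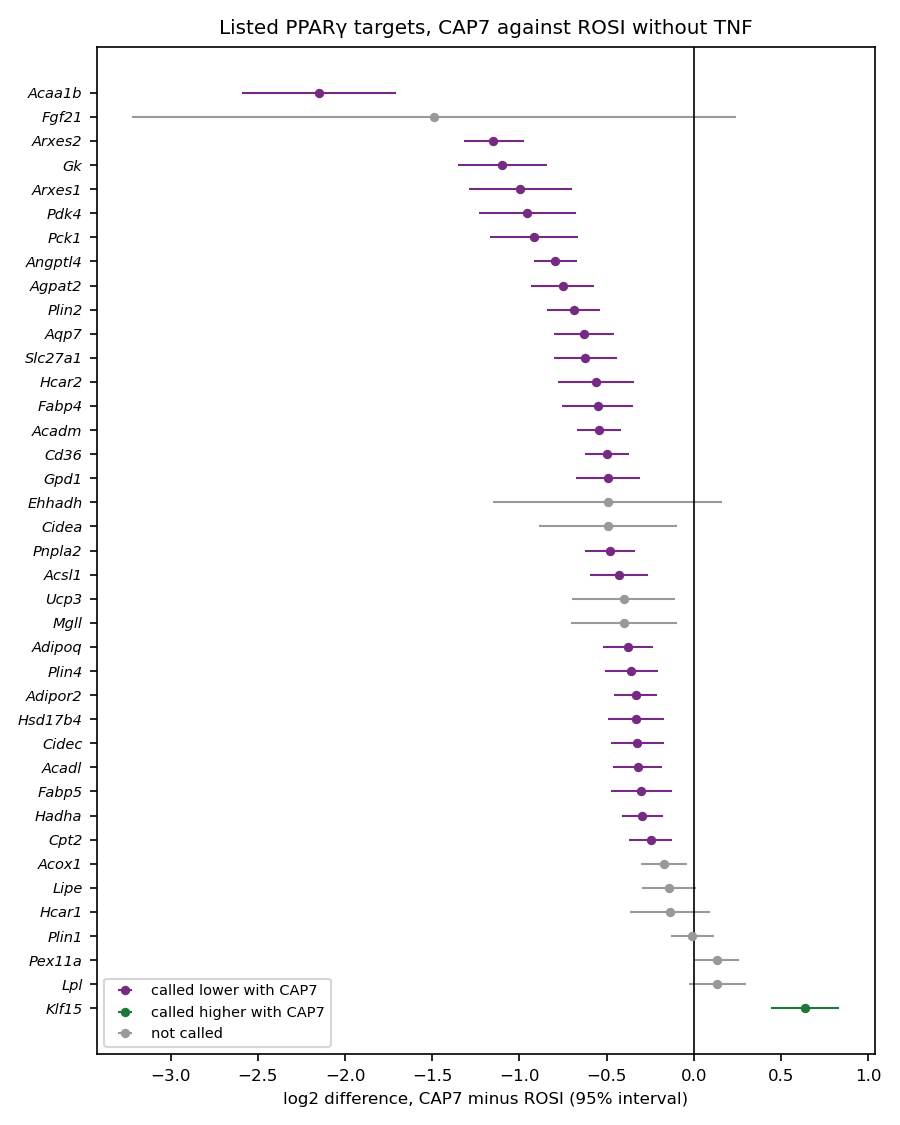
Log2 difference of CAP7 minus ROSI with its 95% interval (x axis) for 39 of the 40 tested PPARγ targets (y axis, ordered by difference), coloured by call. The points run from -2.15 for Acaa1b to 0.64 for Klf15, and 36 of the 39 lie below 0.

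The promoters of Plin2 and Aqp7, which are listed PPARγ targets, and of Slc25a20, from the list of mitochondrial fatty acid oxidation, are shown because these 3 genes were called lower with CAP7 and each holds a stretch like the PPAR-RXR element. They were chosen after their values were seen. The letters searched were AGGTCA, any 1 base and AGGTCA, with at most 2 mismatches, on both strands of RefSeq promoter windows of 300 bases (250 before and 50 after the start, build GRCm38.p6). Capitals mark the match, which on the opposite strand was searched as TGACCT, any 1 base and TGACCT. Every marked stretch has the full 2 mismatches, so none is an exact copy of the pattern. In Slc25a20 it lies after the start. Plin2 lies at chr4:86670010-86670309 on the minus strand, Aqp7 at chr4:41047913-41048212 on the minus strand, as 1 of 2 promoters listed for it, and Slc25a20, the carnitine-acylcarnitine carrier of the mitochondrion, at chr9:108661886-108662185 on the plus strand.
Plin2: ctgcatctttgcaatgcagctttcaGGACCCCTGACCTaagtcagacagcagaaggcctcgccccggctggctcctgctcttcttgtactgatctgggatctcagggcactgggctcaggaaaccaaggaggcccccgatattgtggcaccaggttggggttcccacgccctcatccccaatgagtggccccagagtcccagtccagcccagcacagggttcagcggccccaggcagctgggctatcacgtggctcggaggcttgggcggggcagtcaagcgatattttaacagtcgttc
Aqp7: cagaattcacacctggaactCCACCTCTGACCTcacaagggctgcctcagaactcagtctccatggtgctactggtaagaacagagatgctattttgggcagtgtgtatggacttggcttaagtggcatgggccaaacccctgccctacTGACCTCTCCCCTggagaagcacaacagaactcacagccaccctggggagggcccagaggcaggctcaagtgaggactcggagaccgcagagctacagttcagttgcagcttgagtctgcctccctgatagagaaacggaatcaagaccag
Slc25a20: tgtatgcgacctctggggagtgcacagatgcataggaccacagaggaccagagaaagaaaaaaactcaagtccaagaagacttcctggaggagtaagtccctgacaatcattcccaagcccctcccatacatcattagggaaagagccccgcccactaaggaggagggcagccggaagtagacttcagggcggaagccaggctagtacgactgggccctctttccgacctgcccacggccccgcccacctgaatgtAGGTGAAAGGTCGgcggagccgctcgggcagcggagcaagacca
Of 34 listed PPARγ targets with a promoter in the table, 4 (11.8%) held such a match, as did 1190 of all 27025 genes (4.4%). A match describes the letters and not a bound site, and enhancers lie outside these windows.

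Genes of fatty acid oxidation, which breaks fatty acids down in mitochondria and peroxisomes, were lower with CAP7 in many members. Of 31 tested mitochondrial members 21 were called lower and 0 higher, with a median difference of -0.31. Some of the lower ones, such as Acadm and Pdk4, were also counted among the lower PPARγ targets. Slc25a20 had 30.4, 45.7, 42.3 and 41.7 CPM with CAP7, 76.3, 79, 74.5 and 65.5 with ROSI and 19.1 to 26.9 with DMSO, a difference of -0.88 (SE 0.122, edgeR adjusted p = 1.86e-06). All CAP7 libraries were below all ROSI libraries and above the vehicle range. Acadm, the medium-chain acyl-CoA dehydrogenase, had 306, 329, 304 and 307 CPM with CAP7 and 449, 476, 460.1 and 429 with ROSI, a difference of -0.54 (SE 0.0614, edgeR adjusted p = 4.88e-08). Of 38 peroxisomal genes 13 were lower and 1 higher. The higher one was Acox2, an oxidase of branched-chain and bile acid precursors, with 8.06, 8.12, 11.3 and 9.4 CPM with CAP7, 1.69, 2.11, 2.13 and 2.79 with ROSI and 7.46, 5.37, 9.1 and 7.98 with DMSO and a difference of 2.09 (SE 0.308, edgeR adjusted p = 6.12e-06). It was the ROSI libraries that stood away from vehicle in this gene. Ppargc1a, the PGC-1α coactivator of mitochondrial genes, differed by -0.53. Among all tested genes 6.27% were called lower and 5.39% higher. Mitochondrial ribosomal proteins (16 lower and 1 higher of 78, median -0.14) and respiratory chain subunits (8 lower and 1 higher of 79, median -0.10) had medians closer to that of all genes. Their lower counts rested partly on single libraries, falling to 7 for the ribosomal list without CAP7 replicate 1, to 10 without ROSI replicate 1 or 2, and to 5 for the respiratory chain without CAP7 replicate 1 or 3 or ROSI replicate 2.

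Of 25 cholesterol synthesis and uptake genes 10 were called lower with CAP7 and 0 higher, against 6.27% and 5.39% of all tested genes. The median of the list was -0.17. Hmgcs1, the synthase that feeds the mevalonate pathway, had 764, 794, 714 and 734 CPM with CAP7, 1188, 1157, 1206 and 1110 with ROSI and 542 to 569.7 with DMSO, a difference of -0.63 (SE 0.0664, edgeR adjusted p = 1.06e-08). The sterol reductase Dhcr7 and the sterol sensor Insig1 differed by -0.59 and -0.45. Of 25 tested genes of de novo lipogenesis and desaturation 8 were higher, 4 lower and 13 not called, with a median of 0.17. Acly, ATP citrate lyase, and Acaca, the cytosolic acetyl-CoA carboxylase, both at 0.17, were not called (Acly was called higher with library sizes alone, at 0.20), and Acacb, its mitochondrial relative, was lower at -0.44. Scd1, the main stearoyl-CoA desaturase, had 11379, 10449, 9465 and 9242 CPM with CAP7, 5537, 5822, 6342 and 6441 with ROSI and 11862, 11072, 11156 and 12033 with DMSO, a difference of 0.75 (SE 0.0857, edgeR adjusted p = 6.07e-08). CAP7 libraries lay near vehicle and ROSI libraries lay below both. Fasn, fatty acid synthase, differed by 0.53, while Srebf1, the factor that drives lipogenic genes, was not called, with an interval of -0.13 to 0.23. Among the 4 lower were Hsd17b12, a reductase of long-chain elongation, at -0.76, and Elovl3, an elongase of very long fatty acids, with 4.73, 5.08, 3.78 and 8.18 CPM with CAP7 and 13.4, 16.7, 11.3 and 14.5 with ROSI and a difference of -1.35.

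Transcript of the receptor itself, Pparg, was higher with CAP7. It had 426, 403, 407 and 389 CPM with CAP7, 277, 262, 218 and 289.9 with ROSI and 561, 588, 598 and 540.5 with DMSO, a difference of 0.63 (SE 0.0783, edgeR adjusted p = 2.18e-07). The 3 groups did not overlap, and ROSI libraries were the lowest. Cebpa, its partner in adipogenesis, was not called, with an interval of -0.30 to 0.03. Adipoq, which encodes adiponectin, had 8681, 9414, 7977 and 8534 CPM with CAP7, 11614, 11047, 11894 and 10382 with ROSI and 9587, 9771, 9824 and 9351 with DMSO, a difference of -0.38 (SE 0.0711, edgeR adjusted p = 0.00024). Adipoq and Cidec, a droplet fusion protein, belong to a set of 16 tested genes that earlier work tied to phosphorylation of PPARγ by CDK5. In that set 4 were called higher and 4 lower with a median of 0.03, against 5.39% and 6.27% of all tested genes. Selenbp1, a selenium-binding methanethiol oxidase, and Cyp2f2, a cytochrome P450, were 2 of the higher ones, at 0.96 and 0.92, and Cidec was lower at -0.32. Slc2a4, the insulin-regulated glucose transporter GLUT4, had 199, 212, 210.2 and 206 CPM with CAP7 and 173, 159, 164 and 171 with ROSI, a difference of 0.31 (SE 0.0956, edgeR adjusted p = 0.0273). That call was lost when CAP7 replicate 2 or 3 or ROSI replicate 2 or 3 was left out, with edgeR adjusted p between 0.0589 and 0.0789.

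DNA replication and mitosis genes, whose products copy and separate chromosomes, had the highest share of lower calls with CAP7 among the lists in the plot of calls per list. Of 65 tested members 48 were lower and 0 higher, against 6.27% and 5.39% of all tested genes. The median difference was -0.70. Rrm2, the small subunit of ribonucleotide reductase, had 3.48, 4.01, 4.63 and 3.91 CPM with CAP7, 12.4, 13.9, 12.8 and 10.7 with ROSI and 10.5, 8.42, 9.56 and 9.15 with DMSO, a difference of -1.64 (SE 0.133, edgeR adjusted p = 1.8e-11). Top2a, the topoisomerase that untangles chromosomes, had 21.5, 17.2, 16.4 and 17.8 CPM with CAP7, 45, 39.2, 41.2 and 42.3 with ROSI and 36.2, 32.7, 32.4 and 38.3 with DMSO, a difference of -1.20 (SE 0.117, edgeR adjusted p = 2e-09). In both genes the CAP7 libraries were below every vehicle library as well as every ROSI library. Birc5, a chromosomal passenger protein, Plk1, a mitotic kinase, Mcm5, part of the replicative helicase, and Tk1, thymidine kinase, differed by -1.16, -1.28, -1.18 and -1.01. All were present at low levels, with group means from 4.01 CPM (Rrm2 with CAP7) to 41.9 CPM (Top2a with ROSI) among the 6 genes named here. Against DMSO 46 of the 65 were called lower with CAP7 (against 15% of all tested genes), with a median of -0.66, and 12 higher and 7 lower with ROSI (against 18.4% of all tested genes higher and 19% lower), with a median of 0.06. Fibroblast and preadipocyte markers, given above, were lower in summed level in both compounds than with DMSO, and their part in these values was not tested. The cell cycle inhibitor Cdkn1a was not called, with an interval of -0.57 to 0.21.

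The Top2a promoter is shown for this list because it holds 2 letter patterns that are more frequent in promoters of these genes than in all promoters. They are TTTGAA, the core of the cell cycle genes homology region, and CCAAT, read on both strands, where they appear as TTCAAA and ATTGG. The 2 patterns were chosen after the data were seen, and capitals mark them. The window lies at chr11:99024140-99024439 on the minus strand, in build GRCm38.p6.
Top2a: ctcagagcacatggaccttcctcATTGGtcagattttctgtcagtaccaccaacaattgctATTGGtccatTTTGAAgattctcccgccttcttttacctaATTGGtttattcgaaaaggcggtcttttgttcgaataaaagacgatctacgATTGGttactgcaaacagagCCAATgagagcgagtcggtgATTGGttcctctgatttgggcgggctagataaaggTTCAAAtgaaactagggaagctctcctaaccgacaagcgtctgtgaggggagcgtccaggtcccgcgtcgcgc
It holds 2 and 6 matches of the patterns. Of 50 members with a promoter in the table, 20 (40.0%) held TTTGAA, against 20.2% of all genes, and 35 (70.0%) held CCAAT, against 41.1%. Of the 38 among them that were called lower, 18 (47.4%) held TTTGAA and 28 (73.7%) held CCAAT. The CCAAT share was not particular to this list. It was 73.3% (11 of 15) in listed antioxidant genes called higher with CAP7, and 32.4% (11 of 34) in listed PPARγ targets.

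Antioxidant genes were called higher with CAP7 more often than lower. Of 60 tested NRF2-linked genes 17 were higher with CAP7 and 8 lower, against 5.39% and 6.27% of all tested genes. The median of the list was 0.16, and 5 members were lower without CAP7 replicate 1. Hmox1, the haem-degrading enzyme, had 640.1, 471, 526 and 608 CPM with CAP7, 213, 337, 248 and 369 with ROSI and 117, 104, 100.2 and 130.4 with DMSO, a difference of 0.95 (SE 0.201, edgeR adjusted p = 0.00101). Every CAP7 library was above every ROSI library and both were above vehicle. Nqo1, a quinone reductase, had 8.48, 10.6, 9.02 and 10.8 CPM with CAP7, 6, 6.82, 4.43 and 6.89 with ROSI and 16.7, 16, 14.5 and 18.2 with DMSO, a difference of 0.70 (SE 0.129, edgeR adjusted p = 0.00019). Unlike Hmox1, both compounds lay below vehicle in this gene. Txnrd1, thioredoxin reductase, and Gclm, a subunit of the glutathione-making ligase, differed by 0.44 and 0.36, and Slc7a11, the cystine importer, was lower, at -0.67. Also called lower were Cbr3, a carbonyl reductase, at -0.46, and Cat, catalase, at -0.36. The Gclm call was lost without ROSI replicate 1 (edgeR adjusted p = 0.0904), and that of Slc7a11 without CAP7 replicate 1 (edgeR adjusted p = 0.0741) or ROSI replicate 4 (edgeR adjusted p = 0.0677).

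Glutathione S-transferases, which join glutathione to reactive compounds, were higher with CAP7 in 7 of 20 tested members and lower in 2. Over all tested genes these shares were 5.39% and 6.27%. The family was chosen after its values were seen. Gstm2 had 94.7, 105, 101 and 105 CPM with CAP7, 47.6, 48.9, 56.7 and 54 with ROSI and 135, 136, 136 and 131 with DMSO, a difference of 0.97 (SE 0.0667, edgeR adjusted p = 3.59e-13). Gstm1 had 155, 169, 164 and 166 CPM with CAP7, 86.9, 88.3, 101 and 82 with ROSI and 199.7, 204, 216 and 193 with DMSO, a difference of 0.87 (SE 0.0757, edgeR adjusted p = 1.18e-10). In both genes the order was ROSI, CAP7 and DMSO from low to high with no overlap, but members of this family are alike and their reads may be split. Ephx1, the microsomal epoxide hydrolase, and Abcc4, an efflux pump of organic anions, were higher with CAP7, at 0.89 and 1.10.

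Selenow, a small selenoprotein of the redox system, had the lowest adjusted p of all tested genes. It had 111, 115, 118 and 119 CPM with CAP7, 30.2, 33.4, 29.5 and 32.4 with ROSI and 39.3, 40.1, 45.5 and 44 with DMSO, a difference of 1.88 (SE 0.0747, edgeR adjusted p = 1.07e-20). Only the CAP7 libraries were high, and ROSI libraries lay below vehicle. Gpx1, the selenium-dependent glutathione peroxidase, had 248, 301, 241 and 275 CPM with CAP7, 139.8, 157, 148 and 141 with ROSI and 228, 247, 228 and 239 with DMSO, a difference of 0.86 (SE 0.0707, edgeR adjusted p = 2.37e-11). Of 18 tested selenoproteins and their machinery 6 were higher and 1 lower, against 5.39% and 6.27% of all tested genes. This list was also chosen after the values were seen. The lower one was Sephs2, which makes the selenium donor for selenocysteine, with 19.3, 21.4, 19.1 and 19.3 CPM with CAP7, 35.8, 30.3, 29.9 and 35.1 with ROSI and 25.5, 25.8, 23.1 and 26.4 with DMSO and a difference of -0.73 (SE 0.0813, edgeR adjusted p = 3.34e-08).

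Metal handling was higher with CAP7 in 10 of 30 tested genes and lower in 3, against 5.39% and 6.27% of all tested genes. Mt2, a zinc- and copper-binding metallothionein, had 1975, 1593, 2187 and 1716 CPM with CAP7, 623, 842, 557 and 1146 with ROSI and 1002, 1065, 939 and 1013 with DMSO, a difference of 1.24 (SE 0.143, edgeR adjusted p = 6.84e-08). The ROSI libraries were spread widely, yet none reached the lowest CAP7 library. Its paralogue Mt1 and the ferritin light chain Ftl1, which stores iron, were higher with CAP7, at 0.73 and 0.63.

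**Figure D3:**
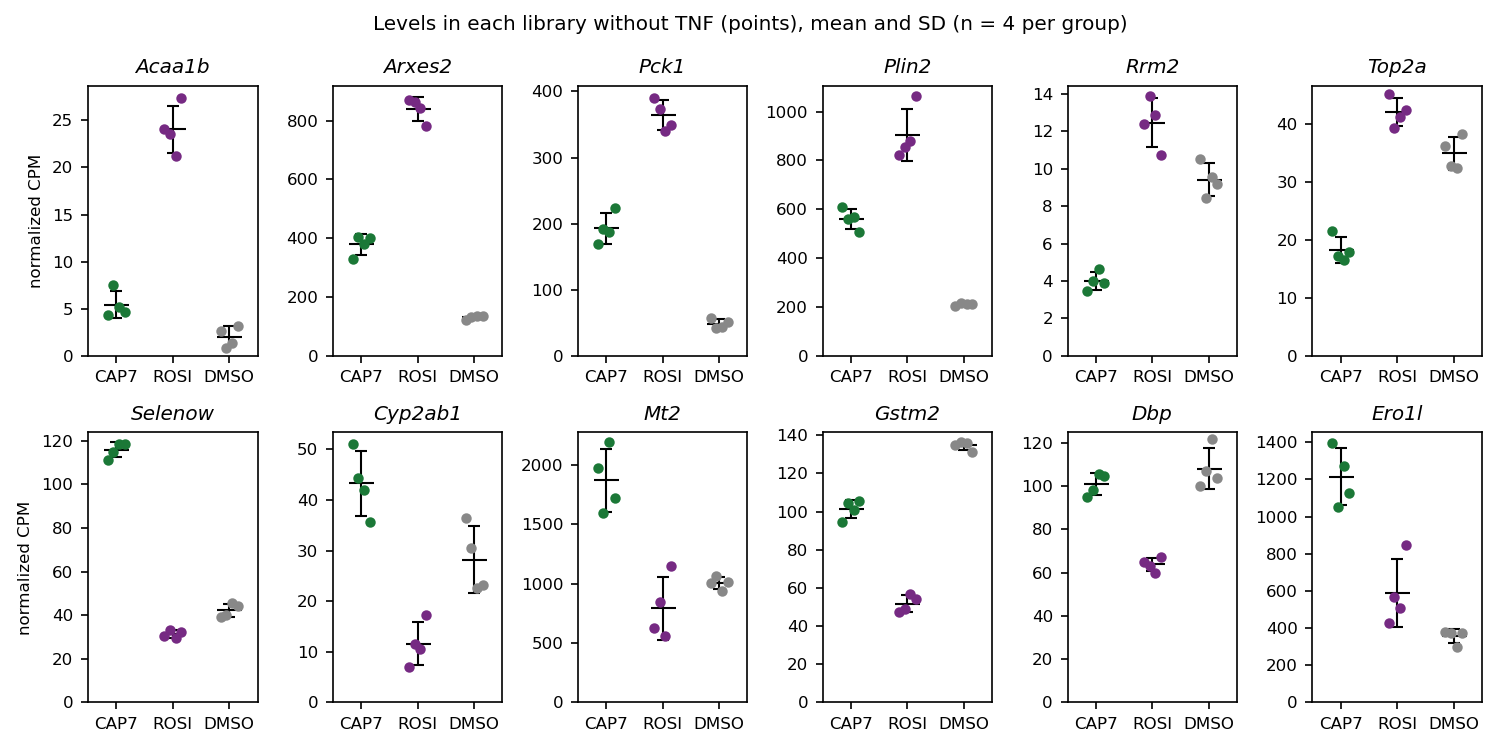
TMM-scaled CPM (y axis, from 0) of 12 genes in each library without TNF, with CAP7 (green), ROSI (purple) and DMSO (grey) side by side and bars for the mean and SD (n = 4 per group). In each panel the CAP7 and ROSI points do not overlap, while the place of the DMSO points varies. Examples are DMSO below both (Acaa1b, Arxes2, Pck1, Plin2), near ROSI (Selenow), near CAP7 (Dbp) and above both (Gstm2).

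Glycolysis and hypoxia-linked genes were higher with CAP7 in 19 of 40 tested members and lower in 3, with a median of 0.26. The higher count was 12 without CAP7 replicate 1 or ROSI replicate 1, and the lower count was 1 without CAP7 replicate 1 or 3. Ero1l, an oxidase of the endoplasmic reticulum that makes disulfide bonds, had 1398, 1054, 1274 and 1129 CPM with CAP7, 429, 569, 506 and 848 with ROSI and 300 to 379.9 with DMSO, a difference of 1.05 (SE 0.183, edgeR adjusted p = 8.78e-05). Ndrg1, a stress- and hypoxia-responsive gene, had 124, 99.8, 102 and 68.9 CPM with CAP7 and 42.8, 57.3, 44.5 and 63.4 with ROSI, a difference of 0.92 (SE 0.165, edgeR adjusted p = 0.000116). The lowest CAP7 library of Ndrg1 was only slightly above the highest ROSI library. Pkm, pyruvate kinase, differed by 0.36. The 3 lower genes were Pfkfb3, Ldhb and Slc16a1, at -0.40, -0.39 and -0.31. Another 18 members were not called, among them Vegfa at 0.21 and the glucose transporter Slc2a1 at 0.16. Unfolded protein genes, a list that also holds Ero1l, were higher in 7 of 28 and lower in 1. Among all tested genes 5.39% were higher and 6.27% lower. Within the ATF4 list 7 of 43 were higher and 5 lower, with a median of 0.00, and 3 were lower without CAP7 replicate 1 or ROSI replicate 2, 3 or 4. Trib3, a pseudokinase induced by stress, had 289.9, 245, 298 and 247 CPM with CAP7 and 124, 153, 154 and 185 with ROSI, a difference of 0.81 (SE 0.147, edgeR adjusted p = 0.000147), and Ddit3, the factor CHOP, differed by 0.58. Cth, which makes cysteine, was lower, at -0.54, and Atf4 itself was not called, with an interval of -0.13 to 0.20.

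Clock genes, a feedback loop of transcription factors that keeps daily time, were higher with CAP7 in 8 of 19 tested members and lower in 0. The shares over all tested genes were 5.39% and 6.27%. The median of the clock list was 0.36. Bhlhe40, a repressor of the loop, had 124, 126, 121 and 108 CPM with CAP7, 69.2, 73.2, 68.8 and 73 with ROSI and 138, 126, 126 and 139 with DMSO, a difference of 0.75 (SE 0.0887, edgeR adjusted p = 9.52e-08). Dbp, an output factor of the clock, had 95.1, 98.4, 106 and 105 CPM with CAP7, 65, 63, 59.9 and 67.2 with ROSI and 99.9, 107, 122 and 104 with DMSO, a difference of 0.66 (SE 0.0832, edgeR adjusted p = 2.98e-07). In these genes the ROSI libraries were the low group, while CAP7 and vehicle overlapped. The period gene Per3, the output factor Tef and the repressor Nfil3 differed by 0.59, 0.41 and 0.56. All libraries were collected after the same labelled exposure of 24 h, and the sources used here do not give the hour of collection.

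**Figure D4:**
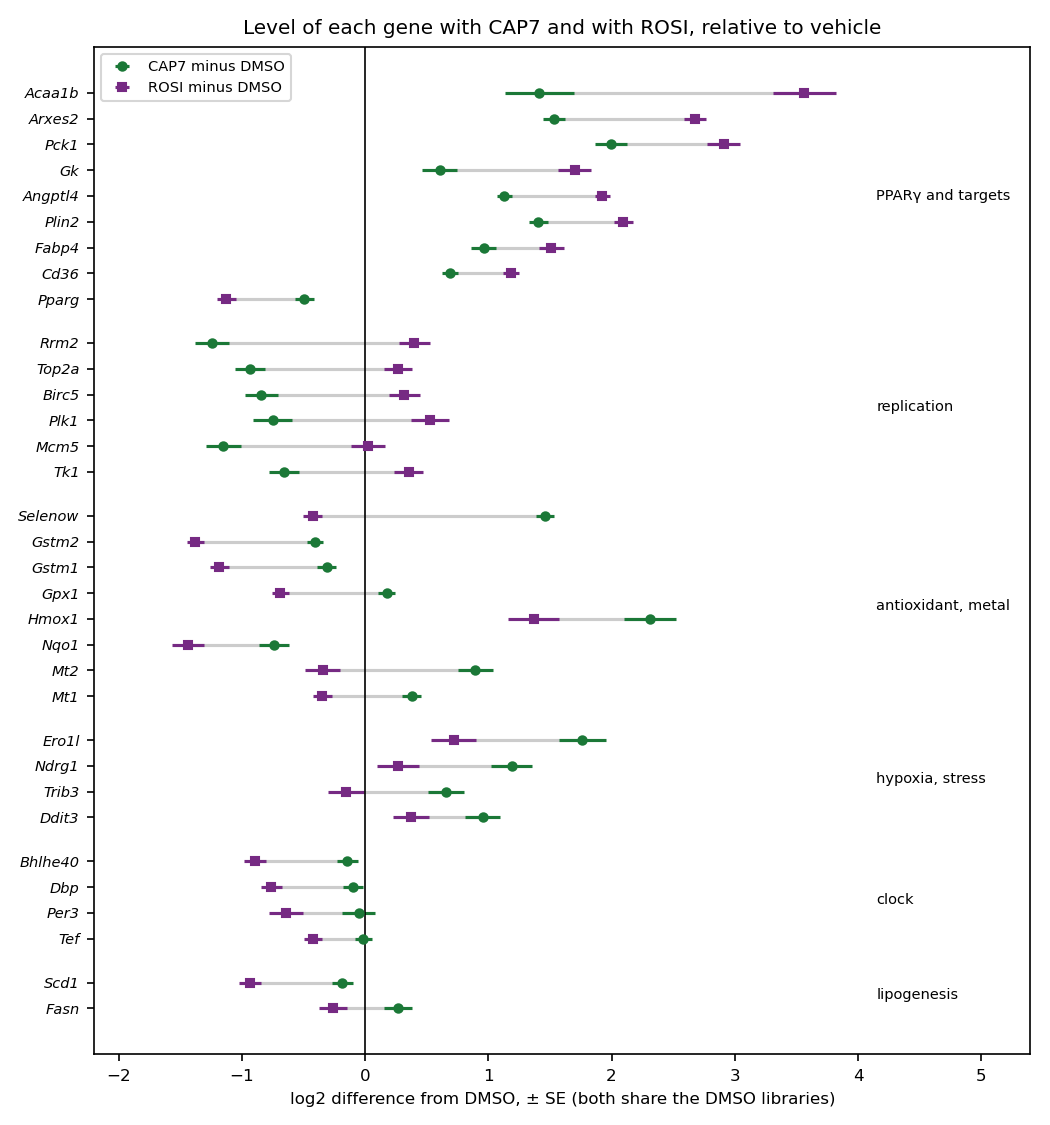
Log2 difference from DMSO with its SE (x axis) for CAP7 (green circles) and ROSI (purple squares) in genes of 6 groups (y axis), joined by a grey line. Both comparisons share the DMSO libraries. For PPARγ targets such as Pck1 the circle (2.00) lies between 0 and the square (2.91), for replication genes such as Rrm2 the circle (-1.24) is left of 0 and the square (0.40) right of it, and for clock genes such as Dbp the circle (-0.10) is near 0 and the square (-0.76) left of it.

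Secreted and matrix genes showed smaller groups of calls. Over all tested genes 5.39% were called higher and 6.27% lower with CAP7. Of 26 tested secreted adipocyte proteins 2 were higher and 5 lower, with a median of -0.02. Of 71 matrix genes 12 were higher and 7 lower, with a median of 0.04. Ogn, the small proteoglycan osteoglycin, had 20.6, 23.1, 18 and 20.7 CPM with CAP7, 7.08, 10.1, 9.95 and 8.7 with ROSI and 18.6, 21, 15.9 and 16.8 with DMSO, a difference of 1.21 (SE 0.15, edgeR adjusted p = 2.26e-07). The CAP7 libraries were at the vehicle level. Fn1, fibronectin, and Mmp2, a gelatinase, were higher, at 0.54 and 0.60, and Timp1, a metalloproteinase inhibitor, was lower, at -0.78 although its groups overlapped. The chemokine Cxcl12 was higher, at 0.56, whereas Ccl2, which attracts monocytes, was not called, with an interval of -0.26 to 0.45. The count of lower matrix genes fell to 2 without CAP7 replicate 3 or ROSI replicate 2. Of 64 interferon-response genes, which cells switch on against viruses, 2 were higher and 2 lower, although the median was -0.26 and 52 members lay below 0. Without CAP7 replicate 1, 12 of them were called lower. In the GH-IGF list 4 of 20 were higher and 0 lower, among them Igfbp4, a binding protein of IGFs, with 1622, 1515, 1543 and 1487 CPM with CAP7, 955, 1001, 1105 and 985 with ROSI and 1450, 1684, 1725 and 1773 with DMSO and a difference of 0.61 (SE 0.074, edgeR adjusted p = 1.64e-07).

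Among called genes with a mean of 16 CPM or more and no overlap between libraries, several of the largest differences lay outside these lists. Cyp2ab1, a cytochrome P450, had 51.1, 44.4, 42 and 35.6 CPM with CAP7, 7.08, 11.6, 10.6 and 17.2 with ROSI and 36.5, 30.5, 22.6 and 23.3 with DMSO, a difference of 1.91 (SE 0.237, edgeR adjusted p = 2.36e-07). Cdsn, an adhesion protein known from skin, Dpep1, a membrane dipeptidase, Lfng, a glycosyltransferase that modifies Notch, and Syn2, a synaptic vesicle protein, were higher, at 1.20, 1.23, 1.10 and 1.06. Negr1, a cell adhesion molecule, had 5.05, 7.7, 6.21 and 7.68 CPM with CAP7, 15.9, 16.6, 14.5 and 17 with ROSI and 3.69 to 4.62 with DMSO, a difference of -1.26 (SE 0.172, edgeR adjusted p = 1.61e-06). Ubd, a ubiquitin-like modifier, had 58.8, 71.8, 70.8 and 51.3 CPM with CAP7, 147, 129, 114 and 162 with ROSI and 49.3 to 60.9 with DMSO, a difference of -1.13 (SE 0.115, edgeR adjusted p = 5.32e-09). For Ubd the CAP7 libraries were close to vehicle and every ROSI library was above all of them. St3gal6, a sialyltransferase, and Adtrp, a hydrolase of fatty acid esters of hydroxy fatty acids, were lower, at -1.11 and -1.05.

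The same compounds were also compared in 4 and 4 libraries that received TNF, none of which gave a level to the comparison above, although all 32 libraries shared its estimate of the spread. There 502 genes were higher (3.48%) and 735 lower (5.09%) with CAP7, 8.57% of those tested together, and with library sizes alone 756 were higher and 465 lower. Of the 777 genes higher without TNF, 236 were also called higher with TNF, 30.4% of that list and 47.0% of the list with TNF, and 5 were called lower. Of the 904 lower genes, 393 were called lower again, 43.5% and 53.5% of the lists, and 1 was called higher. PPARγ targets had a median of -0.49 in both states, with 33 of 40 called lower with TNF. Selenow differed by 1.60 with TNF, Gstm2 by 0.95, Arxes2 by -1.03 and Acaa1b by -2.85.

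The difference between the compounds itself changed with TNF in 65 genes (0.451% of those tested), 28 upward (0.194%) and 37 downward (0.256%). With RLE factors these were 35 and 29, and with library sizes alone 31 and 28. Single libraries weighed on the counts, which were 16 and 21 without ROSI replicate 1. The upward count was 17 without CAP7 replicate 3 of the cells with TNF, and the downward count was 24 without CAP7 replicate 3 of the cells without TNF. Of the 65 genes, 6 were in the replication and mitosis list, where 15 of 65 genes were called lower with TNF and the median was -0.26. Rrm2 differed by -1.64 without TNF and -0.60 with it (edgeR interaction 1.04, adjusted p = 0.00294), and Tk1 by -1.01 and -0.09 (edgeR interaction 0.92, adjusted p = 0.00318). Angptl4 differed by -0.80 without TNF and -0.23 with it (edgeR interaction 0.57, adjusted p = 0.000688). Enpp2, the secreted enzyme autotaxin, had 599.6, 491, 558 and 464 CPM with CAP7 and 234, 235, 321 and 304 with ROSI without TNF, a difference of 0.95 that was 0.12 with TNF (edgeR interaction -0.83, adjusted p = 0.000358). Olr1, a receptor of oxidized LDL, had 1.02, 1.63, 2.68 and 1.76 CPM with CAP7, 11.9, 13.1, 12.3 and 13.1 with ROSI and 0.462 to 1.1 with DMSO without TNF, and its difference of -2.86 was -1.77 with TNF (edgeR interaction 1.09, adjusted p = 0.00396). The chemokine Cxcl5 differed by 0.87 and -0.22 (edgeR interaction -1.09, adjusted p = 0.00294).

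**Figure D5:**
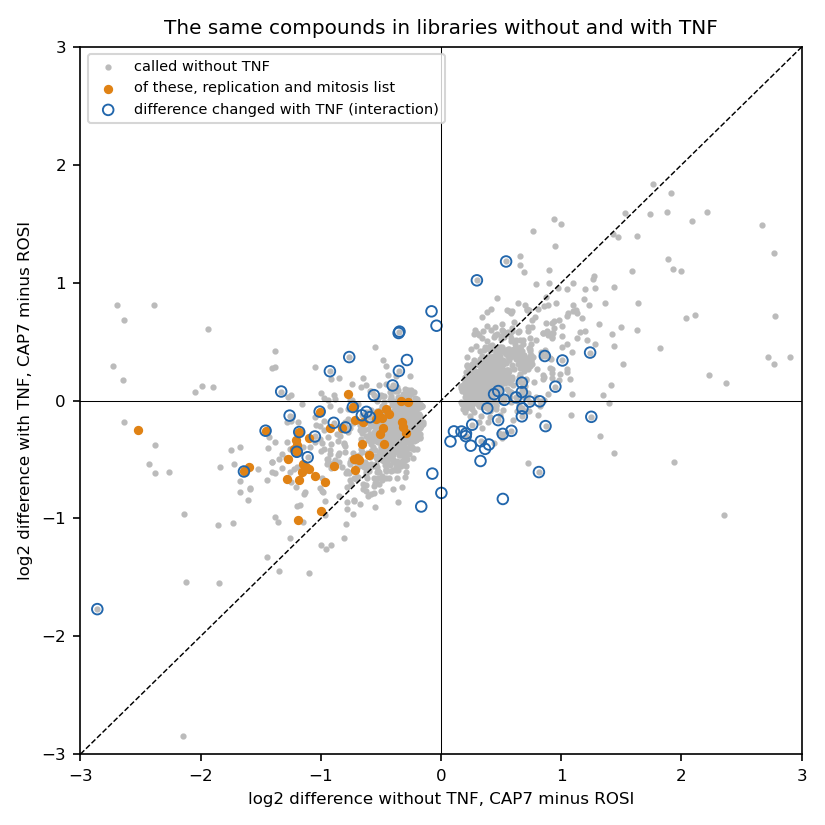
Log2 difference of CAP7 minus ROSI without TNF (x axis) and with TNF (y axis) for genes called without TNF (grey), those of the replication and mitosis list (orange) and the 65 genes whose difference changed with TNF (blue rings, 1 of them outside the axes), with the line of equal differences dashed. Of the called genes 1665 lie within the axis limits of 3, and most points lie on the same side of 0 in both states. The points were chosen by their calls without TNF, and over all called genes the median was 0.21 with TNF and 0.44 without in the higher ones, and -0.26 with TNF and -0.40 without in the lower ones.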

How the data were processed

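RNA of 3T3-L1 adipocytes was sequenced with the QuantSeq 3' mRNA method in 32 libraries, 4 in each of 8 groups. The authors deposited raw, unscaled counts for each Ensembl gene. The submitters' processing notes name STAR 2.7.11b, build GRCm39, cutadapt 4.9, limma 3.60.6, HTSeq 2.0.5 and R 4.4.1. How strand and multimapping reads were counted is not stated there, so near-identical or antisense genes are uncertain. The annotation at hand served for symbols only.

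The table lists 57186 genes. A count was present for 28862, and 14428 were kept by filterByExpr (by group). A single model of all 32 libraries, with group means and TMM scaling, was fitted in edgeR 4.0.16 (R 4.3.3) and tested by quasi-likelihood. It had 24 residual degrees of freedom and a common biological CV of 0.112. The fit was tested on simulated data. Alternatives were RLE factors, library sizes alone, other filters (none, or 5 CPM in 4 libraries), DESeq2 1.42.0, limma-voom (limma 3.58.1), fewer groups, a replicate block and leaving out each library.

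Genes were named by rule: per direction the 12 called genes with the largest change, a mean of 16 CPM or more and no overlap between libraries, up to 6 members of each list with the lowest p, a fixed set, 6 interaction genes per direction, and the PPARγ targets with the narrowest intervals. Acly, Acaca, Acsl4, Abhd6, Adrb3 and Dgat2 were named outside the rule, after their values were seen. Cbr3, Cat, Pfkfb3, Ldhb, Slc16a1, Vegfa and Slc2a1 were also added after their values were seen. The members and lists were chosen with earlier results of these data known. The values of 1 of the 40 tested PPARγ targets are counted in the list totals and not reported singly here.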

Additional observations from a re-analysis of the deposited data

Results flagged for a closer look

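In 4 of 194 group values of named genes 1 library lay far from the other 3 of its group, where chance flags about 1 in 20 groups. Acadm was 328.9 CPM in CAP7 replicate 2, against 303.6 to 306.6 CPM in the other CAP7 libraries. Cidec was 2887 CPM in CAP7 replicate 1, against 3399 to 3480 CPM in the others. Sephs2 was 21.4 CPM in CAP7 replicate 2, against 19.1 to 19.3 CPM in the others. Adrb3 was 124.7 CPM in ROSI replicate 2, against 145.9 to 150.3 CPM in the other ROSI libraries.

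In 12 named genes the difference of CAP7 minus ROSI changed with TNF by the edgeR interaction test, given here as the log2 difference with TNF minus that without. It was positive, so that a lower level with CAP7 was nearer to that with ROSI under TNF, in Angptl4 (0.57), Rrm2 (1.04), Top2a (0.77), Tk1 (0.92), Mcm5 (0.91), St3gal6 (0.62), Adtrp (0.74) and Olr1 (1.09). It was negative in Gpx1 (-0.49), Mt2 (-0.83), Cxcl5 (-1.09) and Enpp2 (-0.83), genes that were higher with CAP7 without TNF. The edgeR adjusted p values ran from 0.000358 for Enpp2 to 0.0442 for Mt2. What lies behind these values was not tested.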

How the results depend on the processing

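Counts of genes higher (777) and lower (904) with CAP7 without TNF stayed within 1.5 times under every alternative run. They ran from 541 to 813 and from 684 to 907 when 1 library was left out. With only the groups compared in the fit they were 557 and 749. Genes at least 2-fold apart numbered 198, 87 with the stricter filter, and 158 to 222 when 1 library was left out. With TNF, library sizes alone gave 756 higher and 465 lower (502 and 735 as reported) and a fit of the groups compared gave 422 lower, with ranges of 373 to 451 and 505 to 716 when 1 library was left out. The interaction moved most. Its upward and downward counts (28 and 37) were 79 and 86 with no filter, 11 and 16 with only the groups compared, 90 and 59 with DESeq2, and 16 to 36 and 21 to 38 when 1 library was left out. The cause was not tested. Of 87 called genes checked, 83 kept the call in every alternative that gave a value, and Slc2a4, Gclm, Slc7a11 and Acsl4 lost it when certain libraries were left out. Uncalled genes near 0 changed sign, Plin1 being 0.02 with library sizes alone. Without 1 library, Plin1 ran from -0.04 to 0.01, Atf4 from -0.00 to 0.11 and Ccl2 from -0.15 to 0.27. Replicate numbers did not pair the samples. After removal of group means, libraries with the same number correlated at -0.074 to 0.022 without TNF and -0.106 to 0.029 with TNF. With a replicate block 805 genes were higher and 913 lower without TNF, 514 and 748 with TNF, and 35 and 40 in the interaction. Genes at a few CPM, as in the replication list, rest on the fewest counts.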
